A study of Oryctolagus cuniculus with 36 samples.

Results

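Collagen genes encode the chains of the collagens, the main structural proteins of the extracellular matrix. They were taken as every gene whose symbol is COL, a number, A and a number, which gave 42 of the 23394 genes counted. By class there were 11 fibrillar, 6 basement membrane and 9 FACIT genes (fibril-associated collagens with interrupted triple helices), and 16 others, of which 5 belong to the beaded filament class. The measurements are RNA sequencing of liver from rabbits with hereditary tyrosinemia type I, in a study that used CRISPR/Cas9 to correct the gene after birth. The disease is caused by loss of the tyrosine-degrading enzyme FAH. The 36 libraries form 9 sets of 4, in 3 groups named WT, FA and FK, with 3 sets each. The labels do not spell out FA and FK or give a treatment, an age, an allele or a strain, and every sample, WT included, carries the disease model's label and comes from trypsinized liver. The 4 libraries of a set were summed and counted as 1 replicate. No label says whether sets came from separate animals, so p-values measure the spread between these sets only.

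Collagen chains assemble as trimers in the endoplasmic reticulum and are secreted, trimmed and crosslinked outside the cell. In liver, stellate cells and portal fibroblasts are known as the main makers of the fibrillar collagens, and sinusoidal endothelium and stellate cells of basement membrane chains. Fibrillar collagens form the tensile fibres that accumulate in fibrosis, type IV collagens form the sheet of basement membranes, and FACITs sit on the surface of fibrils.

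Library totals were 14.2 to 18.7 M counts in WT, 15.1 to 22.5 M in FA and 11.7 to 16.1 M in FK. FAH itself was at 217.5 to 270.7 CPM (counts per M counts of the library, M for mega, after TMM scaling) in WT, 19.6 to 25.8 CPM in FA and 11.8 to 16.4 CPM in FK. FK replicate 3 stood apart from the other FK replicates: its log2 levels over all genes had a correlation of 0.854 and 0.821 with them and of 0.958 to 0.970 with the FA replicates, so results that rest on it are also given without it. Of the collagen genes, 32 passed the filter on low counts and were tested beside 14907 other genes. Of these, 30 had at least 10 counts in all 3 WT replicates. COL10A1 had that many in 2 FA replicates alone and in no WT replicate. It thus passed mainly through the group where it is high, and nothing is read from its level in FA. COL11A2 had at least 10 counts in 1 WT, 1 FA and 2 FK replicates. The 10 that did not pass (COL2A1, COL9A1, COL9A3, COL11A1, COL17A1, COL19A1, COL22A1, COL24A1, COL26A1 and COL28A1) reached at most 0.186 CPM in any replicate. COL9A1, a cartilage FACIT chain, had no count in any library, which at 3 counts over all replicates allows up to 0.00529 CPM, for counting error only.

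Collagen levels also varied between the 4 libraries of a set. Over the 16 collagen genes with a mean of at least 5 CPM, the median within-set SD was 0.345 on the log2 scale, against 0.144 over all 9070 genes at that level. In 5 libraries the median collagen gene lay 0.362 to 0.784 log2 above its set's middle, while the other 31 libraries lay between -0.183 and 0.236. These 5 were library 1 of WT replicate 3, library 3 of FA replicates 1 and 3, and library 4 of FK replicates 2 and 3. In these 5, in that order, the median of genes marking stellate cells and fibroblasts lay 0.151, 0.064, 0.412, 0.201 and 0.649 log2 from the set's middle. That of hepatocyte genes lay at -0.028, 0.087, -0.078, 0.0 and -0.081. The stellate cell and fibroblast deviation was thus large in library 3 of FA replicate 3 and library 4 of FK replicate 3, and small in library 3 of FA replicate 1. It was not confined to the 5 libraries. In library 4 of FA replicate 2 it was 0.255, while the median collagen gene lay at 0.037. The part of these cells in the result was not tested.

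**Figure D1:**
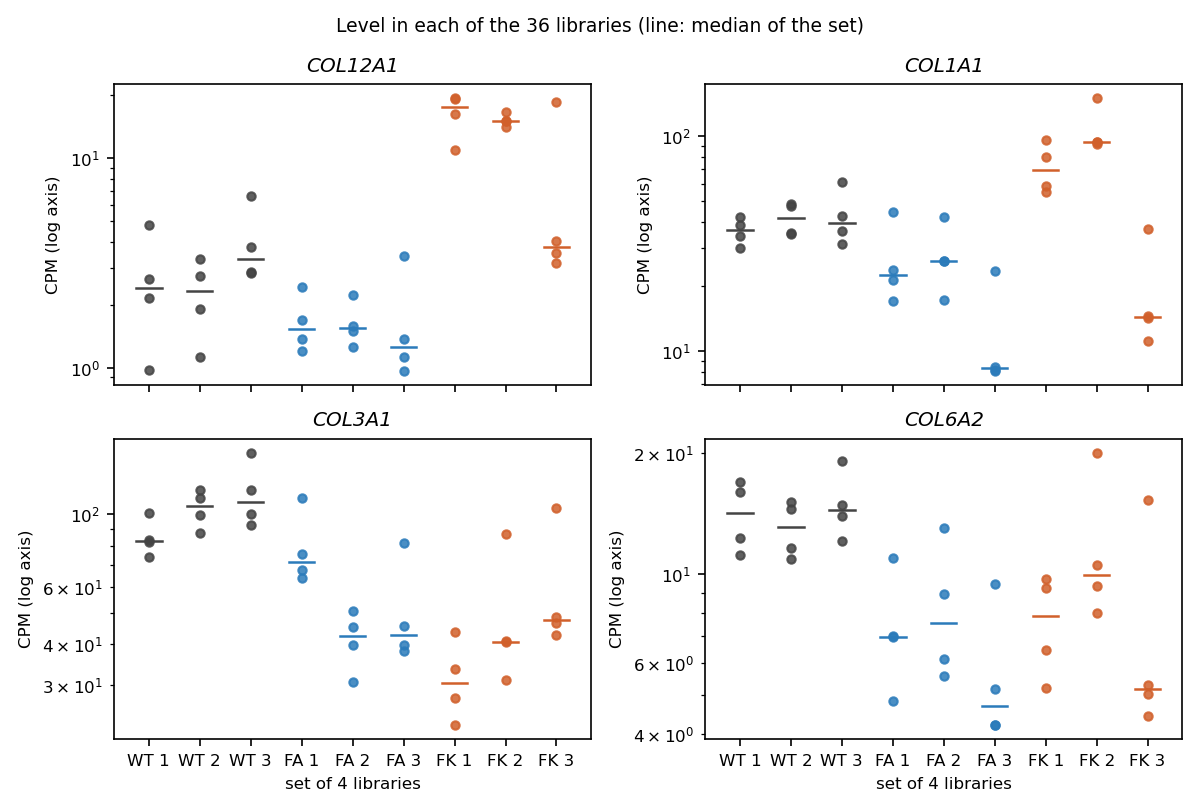
COL12A1, COL1A1, COL3A1 and COL6A2 in CPM on a log axis, with 1 point for each of the 36 libraries, the 9 sets along the horizontal axis and a line at each set's median. In FK replicate 3, 1 library lies above the other 3 in all 4 genes, at 18.6 CPM for COL12A1.

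In the comparison of FK with WT, COL12A1 was the only collagen gene that passed the test, 1 of 32, where 4.77% of all genes tested passed. The test was edgeR's quasi-likelihood F test with Benjamini-Hochberg adjustment over all genes and a threshold of 0.05, and it is the source of every adjusted p below unless another tool is named. At an unadjusted p under 0.05, 5 collagen genes were higher in FK, where 16.7% of all genes were, and 4 were lower, where 10.2% were. All FK replicates lay above all WT replicates in 3 collagen genes (13.9% of all genes did so) and below them in 3 (13.4% of all genes). The lower genes of both counts include COL8A2, which had at least 10 counts in 1 FK replicate alone. DESeq2 called 5 collagen genes higher, where it called 11.0% of all genes, and 1 lower, where it called 5.96%. Without FK replicate 3, 12 passed, 8 higher in FK, where 18.7% of all genes passed, and 4 lower, where 16.2% passed. All of these shares are near those of the genes at large.

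In the comparison of FA with WT no collagen gene passed, where 0.167% of all genes did. Yet 14 of 32 (43.8%) had all FA replicates below all WT replicates, and 12.4% of all genes did. Other lists held such genes as well: 15 of 36 matrix partners, 10 of 21 endothelial, 9 of 24 stellate cell and fibroblast and 5 of 11 macrophage markers, 7 of 17 breakdown genes and 7 of 22 of TGF beta signals. So did 4 of 13 bile duct and 2 of 3 cartilage, bone and skin markers, 3 of 10 receptors, 2 of 7 crosslinking and 4 of 20 chain modification genes. Counts were 1 of 15 erythroid markers and 1 of 14 secretion genes. They were 0 of 13 hepatocyte, 0 of 10 megakaryocyte and neutrophil and 0 of 5 mesothelial markers. In FK, 10 of 36 matrix partners and 8 of 21 endothelial markers lay below WT without overlap, where 13.4% of all genes did. So did 5 of 24 stellate cell and fibroblast markers, 4 of 17 breakdown genes and 4 of 22 of TGF beta signals. Counts in FK were 0 of 11 macrophage markers, 0 of 20 chain modification and 0 of 7 crosslinking genes. The 14 collagen genes were COL1A1, COL1A2, COL3A1 and COL5A1, the basement membrane genes COL4A1, COL4A2 and COL4A3, the FACITs COL9A2, COL12A1, COL14A1 and COL16A1, and COL6A1, COL6A2 and COL6A3. Without the 5 libraries of high collagen 13 of them remained, all but COL9A2, against 12.5% of all genes. In bulk tissue, fewer cells of a type and less RNA per cell cannot be told apart. COL7A1 alone had all FA replicates above WT, where 12.5% of all genes did. At an unadjusted p under 0.05, 7 collagen genes were lower in FA, where 5.05% of all genes were, and COL6A2 was also called lower by DESeq2, which called 0.971% of all genes lower. The 1 collagen gene higher in FA at an unadjusted p under 0.05 (5.11% of all genes) and by DESeq2 (1.21%) was COL10A1. It passed the filter mainly through FA replicates, so nothing is read from either.

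Single replicates showed the split within FK. FK replicate 1 lay above every WT replicate in 13 of 32 collagen genes (40.0% of all genes) and below in 11 (37.8%), and FK replicate 2 lay above in 18 (39.8%) and below in 9 (39.1%). FK replicate 3 lay above in 8 (34.2%) and below in 15 (33.2%). The FA replicates 1, 2 and 3 lay above in 5 (32.5%), 7 (32.7%) and 3 (33.2%), and below in 22 (32.5%), 18 (31.9%) and 21 (33.7%).

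**Figure D2:**
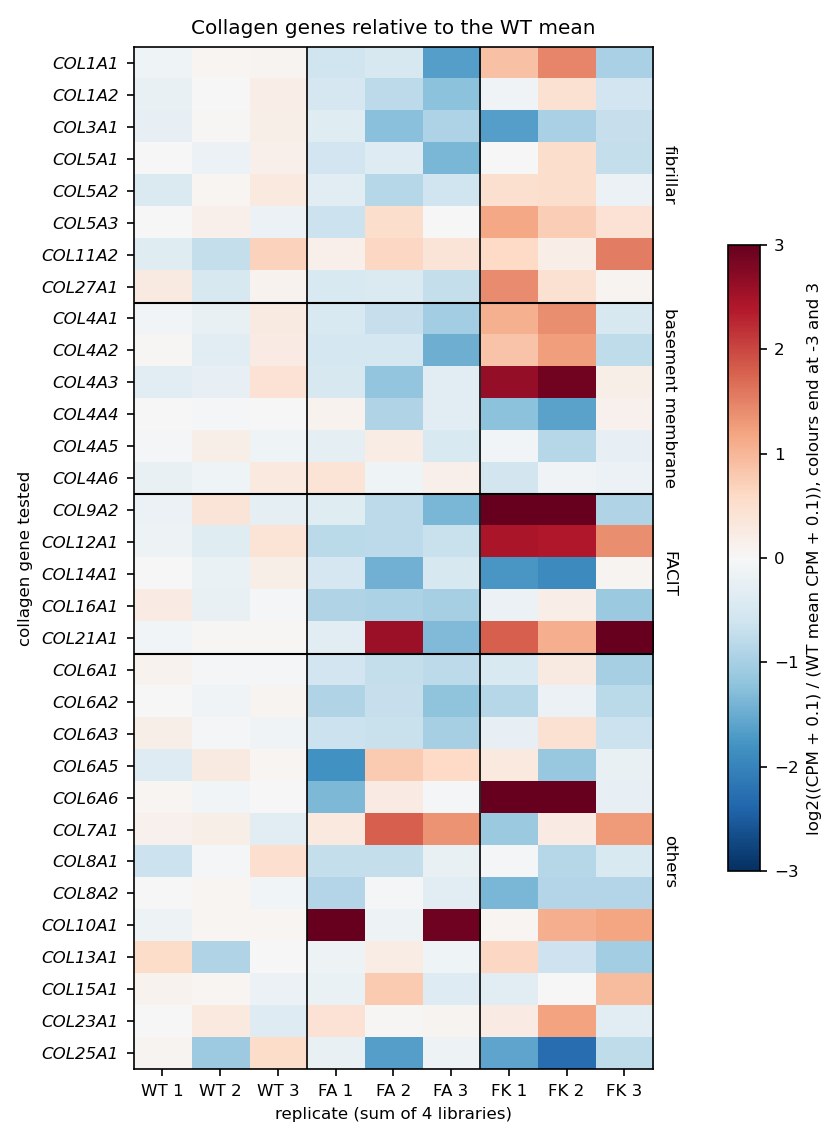
The 32 tested collagen genes (rows, by class) in the 9 replicates (columns), coloured by log2 ratio to the WT mean with 0.1 CPM added. FK replicates 1 and 2 show high COL4A3, COL6A6 and COL9A2, which FK replicate 3 does not.

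Among the fibrillar collagens, COL1A1 and COL1A2 encode the chains of type I collagen, the bulk collagen of scar. COL1A1 was at 35.8, 40.9 and 41.7 CPM in WT, 25.9, 28.3 and 12.5 CPM in FA, and 72.2, 109.8 and 19.9 CPM in FK. The FA replicates all lay below WT, FK replicates 1 and 2 lay above it and FK replicate 3 below it. The log2 difference was 0.77 (SE 0.53, adjusted p = 0.385) for FK minus WT and -0.83 (SE 0.54, adjusted p = 0.65) for FA minus WT. Without FK replicate 3 the FK difference was 1.19 and passed (adjusted p = 0.0226). COL1A2 was at 33.4, 38.3 and 44.7 CPM in WT, 27.4, 22.5 and 16.6 CPM in FA, and 36.3, 53.1 and 26.2 CPM in FK. FA lay below WT in all replicates, with a log2 difference of -0.81 (SE 0.29, adjusted p = 0.4), and FK straddled WT.

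COL3A1, the chain of type III collagen that runs with type I in reticular fibres, was low in both other groups. It was at 84.0, 103 and 114 CPM in WT, 77.4, 41.8 and 52.3 CPM in FA, and 31.9, 50.8 and 62.3 CPM in FK. No replicate of either group reached the lowest WT replicate. The log2 difference was -1.05 (SE 0.31, adjusted p = 0.0765) for FK minus WT and -0.81 (SE 0.31, adjusted p = 0.424) for FA minus WT. The FK difference passed with DESeq2 and without FK replicate 3. It also passed in 2 settings chosen after seeing the data. These were FK replicate 3 summed over its libraries 1 to 3 (-1.22, adjusted p = 0.0486) and the 5 libraries of high collagen left out. It did not pass with RLE factors, with no filter or with only the 2 groups compared. Nor did it pass with the replicate block, with library 1 of each set alone, or without any 1 other replicate.

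The balance between these chains differed in FK replicates 1 and 2. The COL1A1 to COL1A2 ratio of CPM, which is not corrected for transcript length and is read only between replicates, was 0.933 to 1.07 in WT, 0.752 to 1.26 in FA, and 1.99, 2.07 and 0.759 in FK. The COL3A1 to COL1A2 ratio was 2.51 to 2.69 in WT, and 0.879, 0.957 and 2.37 in FK. So FK replicates 1 and 2 lay outside the range of the other replicates in both ratios, and FK replicate 3 did not lie with them.

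**Figure D3:**
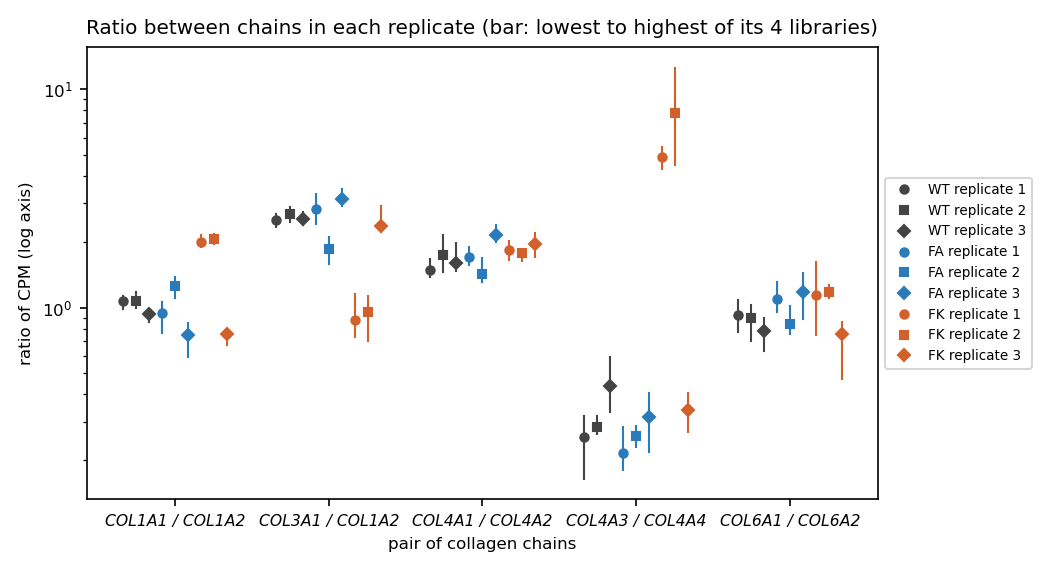
Ratio between chains in each replicate, on a log axis, with bars from the lowest to the highest of its 4 libraries. For COL1A1 to COL1A2 the replicates span 0.752 to 2.07, and FK replicates 1 and 2 are the highest.

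The minor fibrillar chains followed mixed courses. COL5A1, a type V chain that nucleates fibrils, was at 16.6 to 21.0 CPM in WT, 7.26 to 14.3 CPM in FA and 11.3 to 27.2 CPM in FK, with FA below WT (log2 difference -0.72, adjusted p = 0.508). COL5A2, its partner chain, was at 9.14 to 15.1 CPM in WT, 6.75 to 9.91 CPM in FA and 10.9 to 17.8 CPM in FK. COL27A1, a fibrillar chain of cartilage, was at 3.61, 2.11 and 3.22 CPM in WT and at 8.18, 4.12 and 3.18 CPM in FK (log2 difference 0.79, adjusted p = 0.222; 1.02 and 0.0451 without FK replicate 3). Of the low fibrillar genes, COL5A3 was at 0.211 to 0.290 CPM in WT and 0.372 to 0.687 CPM in FK, without overlap. COL11A2, which joins cartilage fibrils, was at 0.0161 to 0.456 CPM over all replicates.

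The basement membrane genes COL4A1 and COL4A2 encode the common type IV trimer. COL4A1 was at 55.9, 50.4 and 70.8 CPM in WT, 43.2, 36.3 and 28.4 CPM in FA, and 123, 155 and 42.3 CPM in FK. COL4A2 was at 37.5, 29.1 and 44.0 CPM in WT, 25.4, 25.4 and 13.2 CPM in FA, and 67.2, 87.8 and 21.6 CPM in FK. For both, every FA replicate lay below WT and FK replicates 1 and 2 lay above it, with FK replicate 3 below. The log2 differences of FK minus WT were 0.86 (SE 0.42, adjusted p = 0.225) for COL4A1 and 0.68 (SE 0.47, adjusted p = 0.385) for COL4A2, and without FK replicate 3 they were 1.22 (adjusted p = 0.00457) and 1.06 (adjusted p = 0.0256). Those of FA minus WT were -0.72 (adjusted p = 0.609) and -0.79 (adjusted p = 0.618). The COL4A1 to COL4A2 ratio of CPM stayed between 1.43 and 2.15 over all 9 replicates.

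COL4A3 and COL4A4 encode chains of the kidney and lung type of basement membrane. COL4A3 was at 2.54, 2.71 and 4.36 CPM in WT, 2.27, 1.34 and 2.51 CPM in FA, and 20.3, 24.6 and 3.65 CPM in FK. FK replicates 1 and 2 were high and FK replicate 3 lay within WT (log2 difference 2.34, SE 0.62, adjusted p = 0.0609; 2.79 and 0.000324 without FK replicate 3). COL4A4 was at 9.57 to 9.98 CPM in WT, 5.23 to 10.6 CPM in FA, and 4.14, 3.17 and 10.7 CPM in FK, so it was low where COL4A3 was high (log2 difference -0.71, adjusted p = 0.336; -1.45 and 0.0061 without FK replicate 3). Their ratio was 0.254 to 0.437 in WT, 0.215 to 0.317 in FA, and 4.90, 7.77 and 0.340 in FK. The annotated spans of these neighbouring genes overlap in RefSeq's assembly mOryCun1.1, and the counting's use of strand is not given in the sources used here, so reads could be split between them. COL4A5, which assembles with both, was at 18.7 to 23.1 CPM in WT and 11.4 to 23.8 CPM in the other replicates, and COL4A6 was at 0.288 to 0.659 CPM over all replicates.

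Among the FACITs, COL12A1 encodes the type XII chain that bridges fibrils. It was at 2.60, 2.24 and 3.89 CPM in WT, 1.63, 1.64 and 1.79 CPM in FA, and 16.4, 15.7 and 7.75 CPM in FK. All FK replicates lay above all WT replicates, and all FA replicates below. COL12A1 rose in FK 4.57-fold, a log2 difference of 2.19 with SE 0.34 and an adjusted p of 0.0237, and 2.45 without FK replicate 3 (adjusted p = 0.000199). The 4 libraries of FK replicate 3 were at 3.53, 4.03, 3.18 and 18.6 CPM, so library 4 alone was high. With that replicate summed over libraries 1 to 3 the difference was 2.03 and no longer passed (adjusted p = 0.0556). Without WT replicates 1, 2 or 3 the adjusted p was 0.122, 0.104 and 0.0627, and without FK replicates 1 or 2 it was 0.0999 and 0.067. For FA minus WT the log2 difference was -0.79 (adjusted p = 0.471).

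COL9A2, a type IX chain of cartilage, was at 0.399, 0.628 and 0.356 CPM in WT, 0.337, 0.227 and 0.117 CPM in FA, and 14.7, 9.16 and 0.203 CPM in FK. The high values were those of FK replicates 1 and 2, and the log2 difference from WT was 4.11 (SE 1.16, adjusted p = 0.0691; 4.66 and 0.000134 without FK replicate 3). COL14A1, the type XIV chain found on mature fibrils, was at 36.2, 31.9 and 41.3 CPM in WT, 25.6, 13.4 and 26.1 CPM in FA, and 10.7, 9.63 and 38.5 CPM in FK. It was low in FK replicates 1 and 2 (log2 difference -0.90, SE 0.52, adjusted p = 0.298; -1.86 and 0.00168 without FK replicate 3), and lower in every FA replicate than in WT (-0.75, adjusted p = 0.674). COL21A1 was at 3.53 to 3.87 CPM in WT, 3.00, 22.6 and 1.44 CPM in FA, and 13.1, 8.01 and 37.2 CPM in FK. All FK replicates lay above WT, the highest being FK replicate 3 (log2 difference 2.38, SE 0.97, adjusted p = 0.157; 1.48 and 0.236 without FK replicate 3). COL16A1, a further FACIT, was at 1.30 to 1.84 CPM in WT and 0.720 to 0.772 CPM in FA (log2 difference -1.04, adjusted p = 0.431).

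**Figure D4:**
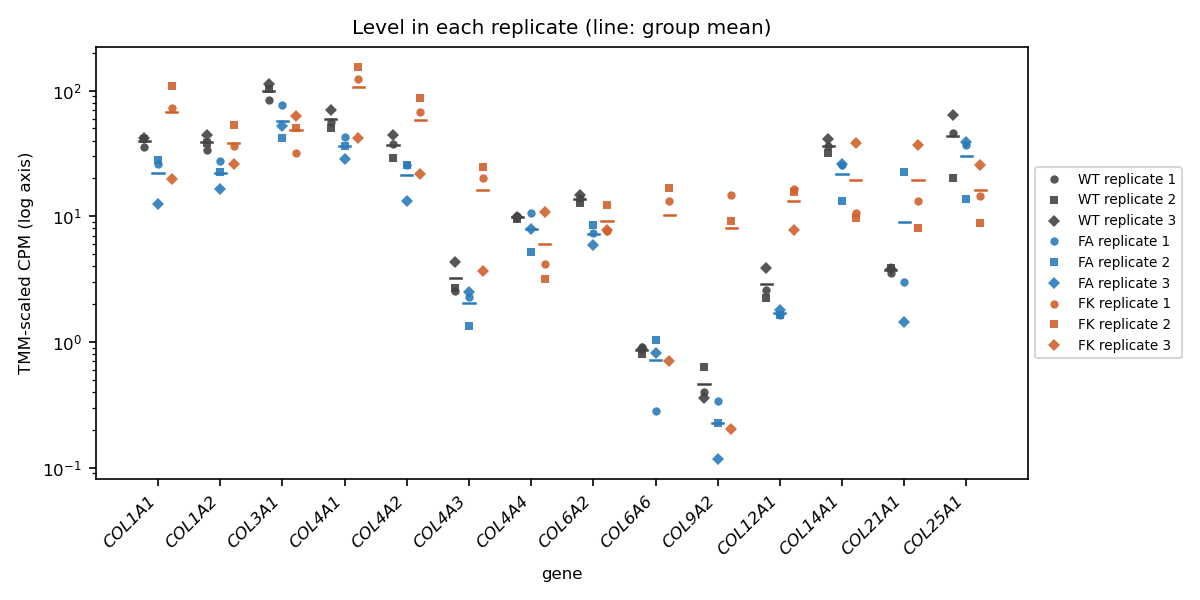
Levels of selected collagen genes in each replicate, in CPM on a log axis, with a line at each group mean. COL12A1 in FK spans 7.75 to 16.4 CPM, above the WT range of 2.24 to 3.89 CPM.

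Of the other classes, the beaded filament genes encode type VI collagen, which links cells to the surrounding matrix. COL6A2 was at 13.9, 12.8 and 14.7 CPM in WT, 7.34, 8.55 and 5.89 CPM in FA, and 7.64, 12.2 and 7.80 CPM in FK. Every FA and FK replicate lay below the lowest WT replicate, although FK and WT overlapped when counts were scaled by library totals alone. The log2 difference was -0.93 (SE 0.24, adjusted p = 0.244) for FA minus WT, which DESeq2 called, and -0.58 (SE 0.24, adjusted p = 0.157) for FK minus WT. Its partners COL6A1 and COL6A3 were at 6.91 to 8.01 and 1.96 to 2.50 CPM in FA, against 11.4 to 12.9 and 3.68 to 4.47 CPM in WT. Their log2 differences from WT were -0.70 (adjusted p = 0.478) and -0.79 (adjusted p = 0.449), and in FK both straddled WT. The summed beaded filament level, in which longer transcripts weigh more, was 31.1 CPM ± 1.47 for WT, 18.2 ± 1.90 for FA and 33.3 ± 15.9 for FK (mean and SD, n = 3 each). FK replicates 1, 2 and 3 were at 33.4, 49.2 and 17.3 CPM, of which COL6A6 made up 13.1, 16.8 and 0.710 CPM. The WT replicates were at 29.6 to 32.5 CPM.

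COL6A6, a further type VI chain, was at 0.910, 0.805 and 0.875 CPM in WT, 0.281, 1.04 and 0.820 CPM in FA, and 13.1, 16.8 and 0.710 CPM in FK. It too was high only in FK replicates 1 and 2 among the 9 replicates (log2 difference 3.56, SE 0.96, adjusted p = 0.0632; 4.10 and 0.00025 without FK replicate 3). COL6A5, its neighbour in the genome, was at 0.0561 to 0.842 CPM over all replicates. COL25A1, a transmembrane collagen known from neurons, was at 46.1, 20.2 and 63.7 CPM in WT, 37.0, 13.8 and 39.2 CPM in FA, and 14.4, 8.86 and 25.5 CPM in FK. FK and WT overlapped (log2 difference -1.41, SE 0.55, adjusted p = 0.146; -1.91 and 0.028 without FK replicate 3). The other transmembrane genes COL13A1 and COL23A1 were at 0.642 to 2.25 and 0.713 to 2.35 CPM over all replicates. COL15A1, a multiplexin of basement membrane borders, was at 3.81 to 4.71 CPM in WT, 3.28 to 7.57 CPM in FA and 3.42 to 8.45 CPM in FK.

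The short chain and anchoring genes were low. COL8A2, a short chain of the cornea's Descemet membrane, was at 0.340 to 0.387 CPM in WT and 0.0799 to 0.152 CPM in FK, without overlap (log2 difference -1.50, SE 0.48, adjusted p = 0.0916). This rests on 68 counts over the WT replicates and 24 over FK, where 1 replicate alone had at least 10. Its partner chain COL8A1 was at 0.182 to 0.616 CPM over all replicates. COL7A1, the anchoring fibril chain, was at 0.340 to 0.531 CPM in WT and 0.589, 1.83 and 1.32 CPM in FA (1.43, adjusted p = 0.526). COL10A1, the chain of hypertrophic cartilage, had 2 counts over the WT replicates and 112 over FA, of which FA replicate 2 had none. It passed the filter mainly through FA replicates, so nothing is read from this difference.

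**Figure D5:**
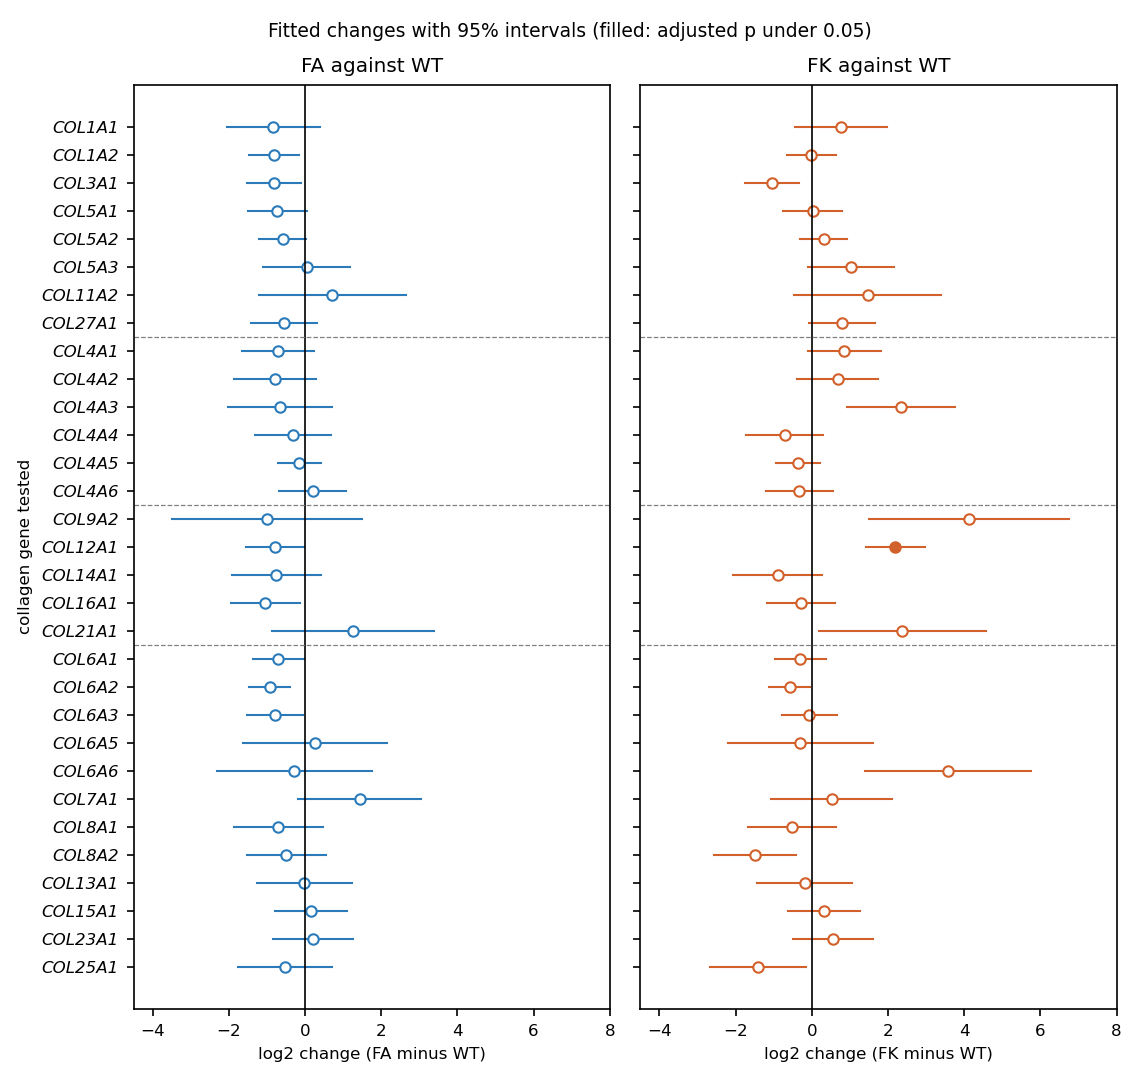
Log2 change of each tested collagen gene except COL10A1 with its 95% interval on the horizontal axis, for FA against WT (left) and FK against WT (right), where a filled marker is past the threshold. COL12A1 in FK against WT, at 2.19, is the only filled marker.

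Between FA and FK no collagen gene passed the test, and neither did any of all genes (0.0%). At an unadjusted p under 0.05, 10 were lower in FA, where 14.9% of all genes were, and 0 were higher, where 7.06% were. All FA replicates lay below all FK replicates in COL4A3, COL5A2, COL6A3, COL12A1 and COL27A1 (8.99% of all genes did so), and above them in COL8A2 (8.24%). DESeq2 called 8 lower in FA, where it called 8.75% of all genes. Without FK replicate 3, 13 were lower, where 18.1% of all genes were, and 2 were higher, where 16.4% were. For COL12A1 FA minus FK was -2.98 (SE 0.35, adjusted p = 0.115). COL4A1 differed by -1.57 (adjusted p = 0.115) and COL1A1 by -1.60 (adjusted p = 0.148).

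Over all 32 tested collagen genes the median log2 difference was -0.57 for FA minus WT, against 0.00 over all genes tested, and 0.17 for FK minus WT, against 0.05. For FA minus WT the class medians were -0.65 in the fibrillar, -0.48 in the basement membrane, -0.79 in the FACIT and -0.28 in the other genes. The summed collagen level was 470.6 CPM ± 61.8 for WT, 301.5 ± 44.8 for FA and 519.8 ± 144 for FK (mean and SD, n = 3 each).

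Genes that make, modify and anchor collagens were read as lists. None of the 20 tested genes of chain modification and folding passed in FK or FA against WT, nor did any of 14 of secretion and propeptide removal, 7 of crosslinking, 10 receptors and 22 of TGF beta signals. Of 17 breakdown genes, TIMP3, an inhibitor of metalloproteinases held in the matrix, fell by 0.82 in FK (adjusted p = 0.0491), at 10.8 to 12.7 CPM against 17.2 to 25.3 CPM in WT. Its call ended without any 1 of the replicates except FK replicate 3 (adjusted p from 0.0721 to 0.173). Of 36 matrix partners, THBS1, a matricellular activator of TGF beta, rose by 4.92 in FK (adjusted p = 0.0368), with 288.6, 314.4 and 13.4 CPM against 5.51 to 7.61 CPM in WT. Its call too ended without any 1 replicate except FK replicate 3 (adjusted p from 0.0618 to 0.153), and with FK replicates 1 and 2 left out the difference was 0.95. CREB3L1, a transcription factor of collagen secretion, was at 90.2, 73.9 and 1.05 CPM in FK and 1.18 to 2.11 CPM in WT (5.17, adjusted p = 0.053). LOX, which crosslinks collagen, was at 9.38, 6.63 and 1.82 CPM in FK and 1.21 to 1.79 CPM in WT (2.07, adjusted p = 0.0553). ADGRG1, a receptor for type III collagen, was at 8.20, 12.6 and 1.37 CPM in FK and 1.48 to 1.83 CPM in WT (2.17, adjusted p = 0.0867). SERPINH1, the collagen chaperone, and SMAD3, which carries the TGF beta signal, differed in FA from WT by -1.01 (adjusted p = 0.328) and 0.98 (adjusted p = 0.291).

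Markers of other cells moved with the groups. The 25 stellate cell and fibroblast markers summed to 499.9 to 571.4 CPM in WT, 333.5 to 411.4 CPM in FA and 389.0 to 473.5 CPM in FK. Over the 24 tested, the median log2 difference was -0.54 for FA minus WT. In FK minus WT 1 of them was called higher and 1 lower. The 21 endothelial markers summed to 518.5 to 643.5 CPM in WT, 318.2 to 443.6 CPM in FA and 454.3 to 584.1 CPM in FK, where CLEC4G and RAMP2 were called lower. The 12 macrophage markers summed to 643.8 to 872.1 CPM in WT, 357.1 to 501.2 CPM in FA and 578.6 to 889.4 CPM in FK, where CD163 was called higher. So the FA sums of stellate cell, endothelial and macrophage markers all lay below WT. The sum over all collagen genes did so too, at 260.7 to 349.5 CPM in FA against 427.1 to 541.4 CPM in WT. The sum of the collagen genes outside the fibrillar, basement membrane and FACIT classes overlapped, at 46.7 to 64.0 CPM in FA and 57.6 to 102.2 CPM in WT. The 14 bile duct markers summed to 320.2 to 352.6 CPM in WT, 300.0 to 313.5 CPM in FA, also below WT, and 234.9 to 347.1 CPM in FK, where SOX9 was called lower. The 6 mesothelial markers summed to 175.7 to 287.0 CPM in WT, 340.0 to 520.2 CPM in FA and 189.9 to 401.2 CPM in FK. KRT18 alone made up most of these sums, at 166.8 to 274.1 CPM in WT and 332.0 to 510.3 CPM in FA. Of the other markers tested, the genes WT1 and PODXL differed in FA from WT by -0.02 and -0.31 log2, and LRRN4 and BNC1 by 0.63 and 0.55. So the higher FA sum is that of KRT18 and is not read as a level of mesothelium. The 13 hepatocyte markers summed to 204100 to 273100 CPM in WT, 223900 to 279300 CPM in FA and 155400 to 252800 CPM in FK, where APOA1 was called higher. ALB alone made up most of these sums, at 159000 to 218600 CPM in WT and 85070 to 180800 CPM in FK. Over the 13 tested, the median log2 difference was 0.95 for FK minus WT. All FK replicates lay above WT in 4 of them and below in 2, against 13.9% and 13.4% of all genes. The sum is thus not read as a level of hepatocytes. Erythroid markers summed to 48.6 to 118.8 CPM in WT, 120.7 to 269.2 CPM in FA, and 939.9, 2523 and 161.2 CPM in FK, where TFRC was called higher. TFRC alone made up most of the sums in FA and FK replicate 3. It was at 19.0 to 28.1 CPM in WT, 108.7 to 242.3 CPM in FA and 142.7 CPM in FK replicate 3. Over the 15 tested, the median log2 difference was -2.02 for FA minus WT. So the higher FA sum is that of TFRC and is not read as a level of erythroid cells. Megakaryocyte and neutrophil markers summed to 20.4 to 30.7 CPM in WT, 19.4 to 42.7 CPM in FA, and 1136, 1619 and 32.3 CPM in FK, where 4 of 10 were called higher, so FK replicates 1 and 2 were high in these as in COL4A3, COL6A6 and COL9A2. Cartilage, bone and skin markers summed to 0.879 to 4.42 CPM over all replicates. The part of any of these cells in the collagen results was not tested.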

How the data were processed

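The authors deposited a table of estimated counts per gene, as whole numbers, for 36 rabbit liver libraries. These estimated counts were made by the authors with Salmon 0.14.1 among the tools, per the submitters' processing notes; its role, the build, strand use and any rounding are not stated in those notes or the labels. The 4 libraries of a set were summed, giving 3 replicates a group and 53.2 to 78.6 M counts each. Genes were filtered with filterByExpr (minimum count 10), scaled by TMM and fitted over all 9 replicates with edgeR 4.0.16 (R 4.3.3), with Benjamini-Hochberg adjustment over 14939 genes. The biological coefficient of variation was 45.2%. The procedure was tested on simulated data. DESeq2 1.42.0, RLE factors, no filter, other sample subsets, a replicate block and each replicate left out were tried as alternatives. Named genes were the called collagen genes, COL12A1 and COL6A2, the 2 most abundant of each class, the type I, III, IV and VI chains, and in each pathway list up to 3 called genes or else the one with the smallest p. Other collagen genes named in the text were chosen after their values were seen. The collagen genes and all lists were chosen with earlier results of these data known. Names were checked in the RefSeq gene table of mOryCun1.1, where 42 of 44 collagen symbols matched; COL18A1, under a LOC identifier, was outside the rule.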

Additional observations from a re-analysis of the deposited data

How the results depend on the processing

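The count of collagen genes called in FK against WT, 1 in the reported fit, was 6 with DESeq2 (5 higher, 1 lower), which called 16.9% of all genes. It was 0 with only the 2 groups compared (0.296% of all genes called) and with library 1 of each set alone (1.47%), and 0 to 12 when each replicate was left out (0.145% to 34.9%). With FK replicates 1 and 2 left out it was 0 (0.493%), but FK is then 1 replicate, assumed to vary like the other groups. The next 2 alternatives were chosen after seeing the data. With the 5 libraries of high collagen left out it was 2 (4.39% of all genes called), COL12A1 higher and COL3A1 lower. With FK replicate 3 summed over libraries 1 to 3 it was again 1 (4.74%), but the gene was COL3A1 and not COL12A1. For FA against WT, 0 in the reported fit, it was 2 with DESeq2 (2.18%), 1 of them COL10A1, and 0 with every replicate left out in turn. For FA against FK, also 0, it was 8 with DESeq2 (11.1%) and 0 to 15 when each replicate was left out (0.0% to 34.5%), the highest without FK replicate 3.

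The set number as a replicate block gave 0 calls in FK against WT (0.315% of all genes called), with COL12A1 at 2.19 and an adjusted p of 0.0794. Same-numbered replicates had correlated deviations of -0.087 to 0.099, and 1 of 9 replicates correlated best with its own number, so the numbers were not taken to pair the samples. Over its other alternatives the adjusted p of COL12A1 in FK against WT ran from 5.5e-07 (DESeq2) to 0.22 (library 1 of each set alone, log2 difference 1.54).

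Leaving out FK replicates 1 and 2 turned the sign of several log2 differences of FK minus WT. Among them were COL6A6 to -0.32, COL9A2 to -1.21, COL1A1 to -1.02, COL4A1 to -0.51, COL4A2 to -0.80, COL14A1 to 0.046, COL4A4 to 0.092, CREB3L1 to -0.57 and ADGRG1 to -0.30. Among those turned in FA minus FK were COL9A2 to 0.20, COL6A6 to 0.039 and COL1A1 to 0.19. Neither list covers every collagen gene. The cause was not tested.

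The same 14 collagen genes had FA below WT without overlap with RLE scaling (12.7% of all genes), and with library totals alone they and COL5A2 did, 15 in all (13.3%). As the log2 ratio of group means with 0.5 CPM added, which is not the fitted difference, the median of all genes in FK against WT was 0.04 with TMM and 0.17 with library totals alone.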
